A study of Gallus gallus with 19 samples.

Results

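The proteasome subunit genes of the neural plate border (NPB) were followed in bulk RNA sequencing of chicken embryos after knockdown of Nanog, PouV or Klf4. Members were all genes of the filtered count table whose symbol was PSMA, PSMB, PSMC or PSMD followed by a number. This gave 31 of 18996 genes, with 7 PSMA, 6 PSMB, 5 PSMC and 13 PSMD genes, and all 31 were tested. The rule used symbols only and no measured value, whereas the choice of these genes for description was made with earlier results of the same samples known. PSMB5, PSMC4 and PSMD8 were not analysed here.

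The samples comprised 4 pools of the Nanog MO side, 3 of the PouV MO side, 4 of the Klf4 MO side and 8 of the control MO side from 3 experiments, with 4 controls in the Nanog, 2 in the PouV and 2 in the Klf4 experiment. A morpholino (MO) is an antisense oligomer, and those used for knockdown were translation blocking, so they were meant to stop protein synthesis without removing the mRNA. The embryos were of wild type genotype, were electroporated at HH4 (gastrula) with the knockdown MO on one side and the control MO on the contralateral side, and were collected at HH7/HH8- (neural fold stage). An empty vector was electroporated together with every MO, also on the control side. The labels name the tissue midbrain and the cell type neural crest, and each sample was a pool of NPB pieces from several embryos. Such a piece is dissected tissue in which electroporation need not reach every cell, so each value is a mean over cells of more than 1 type. In such bulk samples, fewer cells of a type and less RNA per cell cannot be told apart.

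The proteasome is the protease complex that degrades proteins tagged with ubiquitin. Its core particle is a stack of rings made of alpha subunits (PSMA), which gate the entrance, and beta subunits (PSMB), of which PSMB5, PSMB6 and PSMB7 carry the active sites. The regulatory particle sits on the core: a ring of ATPases (PSMC) unfolds the substrate, and the PSMD proteins recognise ubiquitin, remove it and hold the particle together. These roles are known from yeast and mammals. All cells use the complex, and the subunits are present in fixed ratios within it.

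Total counts per sample were 42873895 to 44726348 in Nanog MO, 35014994 to 37420139 in PouV MO, 36452603 to 41977588 in Klf4 MO and 31215191 to 42958715 in control MO samples. All 9 NPB and neural crest markers examined (PAX7, MSX1, ZIC1, TFAP2A, TFAP2B, DLX5, SNAI2, FOXD3 and GBX2) had reads in every sample. The mRNA of none of the targeted genes was called (adjusted p = 0.997, 0.130 and 0.956, edgeR), with NANOG at 6.39 ± 1.26 CPM in Nanog MO and 7.99 ± 3.51 CPM in control MO samples (SD, n = 4 and 8), POU5F3 (PouV) at 1224 ± 264 CPM in PouV MO and 869 ± 141 CPM in control MO samples (SD, n = 3 and 8), and KLF4 at 8.06 ± 4.34 CPM in Klf4 MO and 6.72 ± 1.38 CPM in control MO samples (SD, n = 4 and 8). A translation blocking MO need not lower its mRNA, so these levels do not check the labels. CPM is the read count scaled to a common library size after TMM normalization. It is not divided by transcript length, so levels below are compared between samples of a gene and not between genes.

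In the fit against all controls, proteasome subunit genes were higher in PouV MO samples. Their median log2 fold change was 0.35 with and 0.18 without 1 sample, PouV MO 3. With PouV MO 3 left out and only the controls of the PouV experiment used, it was 0.02. At an adjusted p under 0.05 (edgeR's quasi-likelihood test, adjusted over all genes), 10 of 31 subunit genes rose after PouV knockdown, against 0.479% of all genes called higher, and 0 fell, against 0.184% of all genes called lower. With PouV MO 3 left out, 0 of 31 were called, against 0.0581% of all genes called higher. With the DESeq2 Wald test 17 were called after PouV knockdown, against 1.58% of all genes called higher, 0 after Nanog knockdown, against 0.542%, and 0 after Klf4 knockdown, against 0.179%. After Nanog knockdown 0 of 31 were called, against 0.258% of all genes called higher, and after Klf4 knockdown 0 of 31, against 0.0105%. At an unadjusted p under 0.05, 26 subunit genes were higher after PouV knockdown (9.38% of all genes), 0 after Nanog (3.89%) and 2 after Klf4 knockdown (2.73%). The median log2 fold change of the 31 genes was 0.35 after PouV knockdown, with 29 of 31 above 0, beside a median of -0.00052 and 49.9% above 0 over all genes tested. It was 0.04 after Nanog and 0.09 after Klf4 knockdown, with 23 of 31 above 0 in each, and the Klf4 value turned to -0.05 without the RUVs factor, a covariate for unwanted variation, while that after Nanog was -0.0034 without Nanog MO 3. With the replicate block, a term for the number that an MO and a control sample share, the median was 0.16 after Nanog and -0.06 after Klf4 knockdown. In that fit an MO sample without a control of its number adds nothing to the fold change. After PouV knockdown 0 of 31 were called without the RUVs factor, against 0.226% of all genes called higher. The count was also 0 against only the controls of the PouV experiment (0%) and with the replicate block (0.0737%). The 3 knockdowns share the same 8 control samples, so their values are set side by side only.

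**Figure D1:**
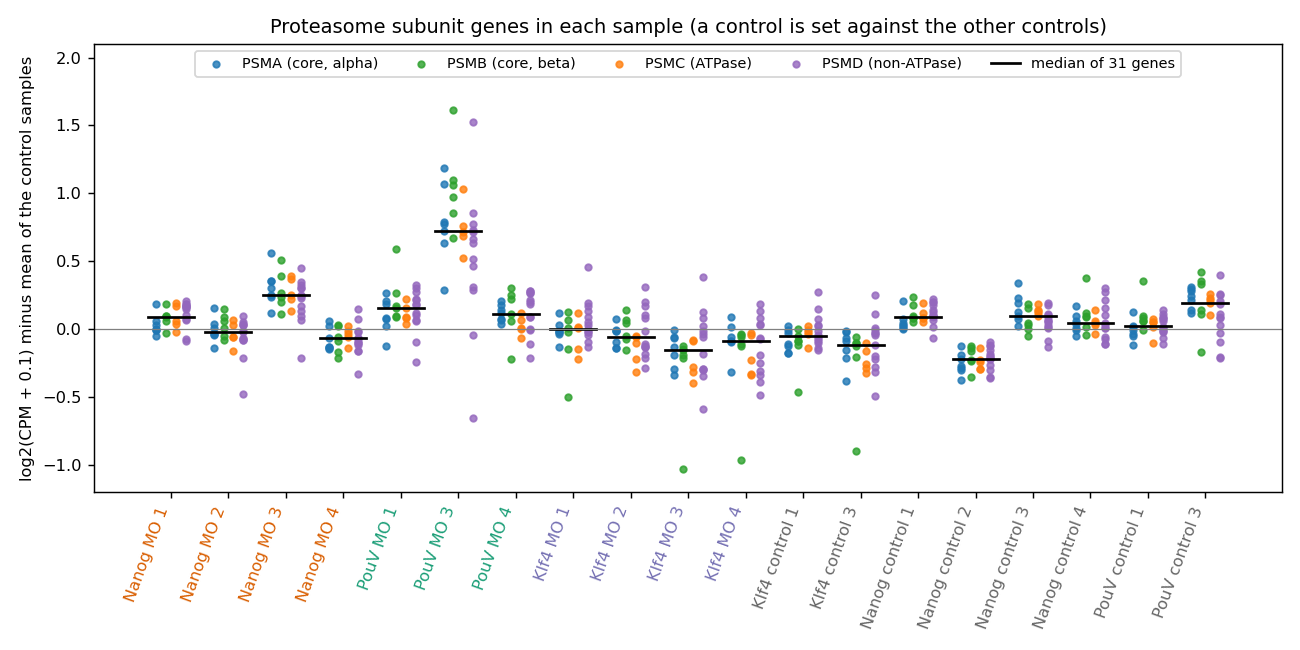
Each point is 1 of the 31 subunit genes in 1 sample, as log2(CPM + 0.1) minus the mean of the control samples, coloured by subunit family, with the median as a bar. The samples run from Nanog MO over PouV MO and Klf4 MO to control MO, and PouV MO 3 stands above all others with a median of 0.72.

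Summed over the 31 genes, expression was 6345, 9787 and 6247 CPM in PouV MO 1, 3 and 4, against 5021 to 6253 CPM in the control samples. The sums were 5483 to 6898 CPM in Nanog MO and 5134 to 5721 CPM in Klf4 MO samples. PouV MO 3 thus lay far above every other sample, PouV MO 1 lay just above the highest control, and PouV MO 4 lay within the control range. Among the controls, PouV control 3, which shares its number with PouV MO 3, had the highest median of the subunit genes, 0.19 on the log2 scale relative to the control mean. In PouV MO 3, 29 of 31 subunit genes exceeded all 8 controls, as did 25.9% of the 13781 genes with a mean of at least 1 CPM. The count was 10 of 31 in PouV MO 1 (10.1% of those genes) and 8 of 31 in PouV MO 4 (6.86%). In PouV control 3, 15 of 31 were above all other controls, as were 18.5% of those genes. PouV MO 3 was the highest of the 19 samples for 28 of 31 subunit genes, including all 13 core genes and all 5 ATPases, and for 21.4% of the 13781 genes.

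PouV MO 3 also differed from the other samples in general measures. Its TMM factor was 0.937, the lowest of the 19 samples, and its 100 most abundant genes took 24.1% of its reads, the highest share. The median of all 13781 genes in it was -0.02 on the log2 scale relative to the controls. The summed level of 6 non-neural ectoderm and placode markers was 790, 1421 and 1124 CPM in PouV MO 1, 3 and 4, and 554 to 1322 CPM in control samples. It was higher still in Nanog MO 2 at 1450 CPM and in Klf4 MO 3 at 1467 CPM. The summed level of 5 blood and endothelial markers, nearly all of it LMO2 and TAL1, was 53.2, 342 and 134 CPM in PouV MO 1, 3 and 4, and 62.6 to 331 CPM in control samples. In both lists PouV MO 3 was just above the highest control, every marker of the first list had reads in all samples, and of the second only HBAD, a haemoglobin gene, was at 0 in any sample. In the summed NPB and neural crest, neural plate, mesoderm, endoderm and notochord markers, PouV MO 3 lay within the control range. The part of the differences of PouV MO 3 in the subunit genes was not tested.

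Among the alpha subunits of the core, 2 of 7 rose after PouV knockdown. The share of all genes called higher, 0.479%, stands beside this count and those of the other subunit families below. PSMA5, an alpha ring subunit, had 174, 304 and 164 CPM in PouV MO 1, 3 and 4, and from 115 over a median of 154 to 165 CPM in control samples. PouV MO 3 was 1.84 times the highest control, PouV MO 1 was above all controls and PouV MO 4 was just under the highest one. The log2 fold change of PSMA5 was 0.58 ± 0.11 (SE, adjusted p = 0.0125, edgeR). PSMA7, which is also an alpha ring subunit, had 250.5, 496 and 251 CPM in PouV MO 1, 3 and 4, and from 181 over a median of 217 to 267 CPM in control samples. Here PouV MO 1 and 4 lay between the control median and the highest control, and the log2 fold change was 0.63 ± 0.14 (SE, adjusted p = 0.0478, edgeR). The other alpha genes, PSMA1, PSMA2, PSMA3, PSMA4 and PSMA6, had log2 fold changes of 0.09 to 0.41 and were not called. PSMA1 was the least changed of them at 0.09, with 72.5, 96.4 and 81.1 CPM in PouV MO 1, 3 and 4, and 70.3 to 91.5 CPM in control samples.

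Among the beta subunits, 3 of 6 rose after PouV knockdown. PSMB6, which carries the caspase-like active site, had 118, 240 and 67.3 CPM in PouV MO 1, 3 and 4, and from 45.3 over a median of 88.9 to 98.3 CPM in control samples. It had the largest log2 fold change of all members, 0.84 ± 0.19 (SE, adjusted p = 0.0387, edgeR), although PouV MO 4 lay below the control median. The trypsin-like subunit PSMB7 had 320, 477 and 312 CPM in PouV MO 1, 3 and 4, and from 260 over a median of 296 to 333 CPM in control samples, and was not called (log2 fold change 0.31 ± 0.10, SE). In PSMB7 only PouV MO 3 was outside the control range.

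The other beta subunits carry no active site. PSMB1 had 173, 307 and 167 CPM in PouV MO 1, 3 and 4, and from 116 over a median of 143 to 185 CPM in control samples (log2 fold change 0.59 ± 0.13, SE, adjusted p = 0.0381, edgeR). Its PouV controls had 149 and 185 CPM, and the highest control of the other experiments had 148 CPM. Against the PouV controls alone, without the RUVs factor, the log2 fold change of PSMB1 was 0.37 and it was not called. PSMB2 had 224, 364 and 249 CPM in PouV MO 1, 3 and 4, and from 175 over a median of 203 to 246 CPM in control samples (log2 fold change 0.49 ± 0.10, SE, adjusted p = 0.0251, edgeR). For both genes PouV MO 3 was above all controls, and of the other PouV MO samples only PouV MO 4 in PSMB2 was, by a small margin. PSMB3 fell just outside the threshold (log2 fold change 0.52 ± 0.12, SE, adjusted p = 0.0512, edgeR), whereas all of its PouV MO samples, at 136, 237 and 143 CPM in PouV MO 1, 3 and 4, exceeded the highest control at 132 CPM. PSMB4 was not called, with a log2 fold change of 0.50 ± 0.13 (SE), and was 1.95 times the highest control in PouV MO 3.

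None of the 5 ATPase genes of the base ring was called after PouV knockdown, while all 5 had an unadjusted p under 0.05. Their log2 fold changes were 0.33 for PSMC1, 0.35 for PSMC2, 0.32 for PSMC3, 0.46 for PSMC5 and 0.27 for PSMC6, with standard errors of 0.09 to 0.13 and adjusted p of 0.0875 to 0.149 (edgeR). The medians were 0.49 over the 13 core genes, 0.33 over the ATPases and 0.34 over the 13 PSMD genes, and the difference between families was not tested. PSMC5 reached 414 CPM in PouV MO 3, and had 215 CPM in PouV MO 1, 204 CPM in PouV MO 4 and 167 to 228 CPM in control samples. As for the other ATPases, only PouV MO 3 and, for PSMC1, PouV MO 1 were above the highest control.

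**Figure D2:**
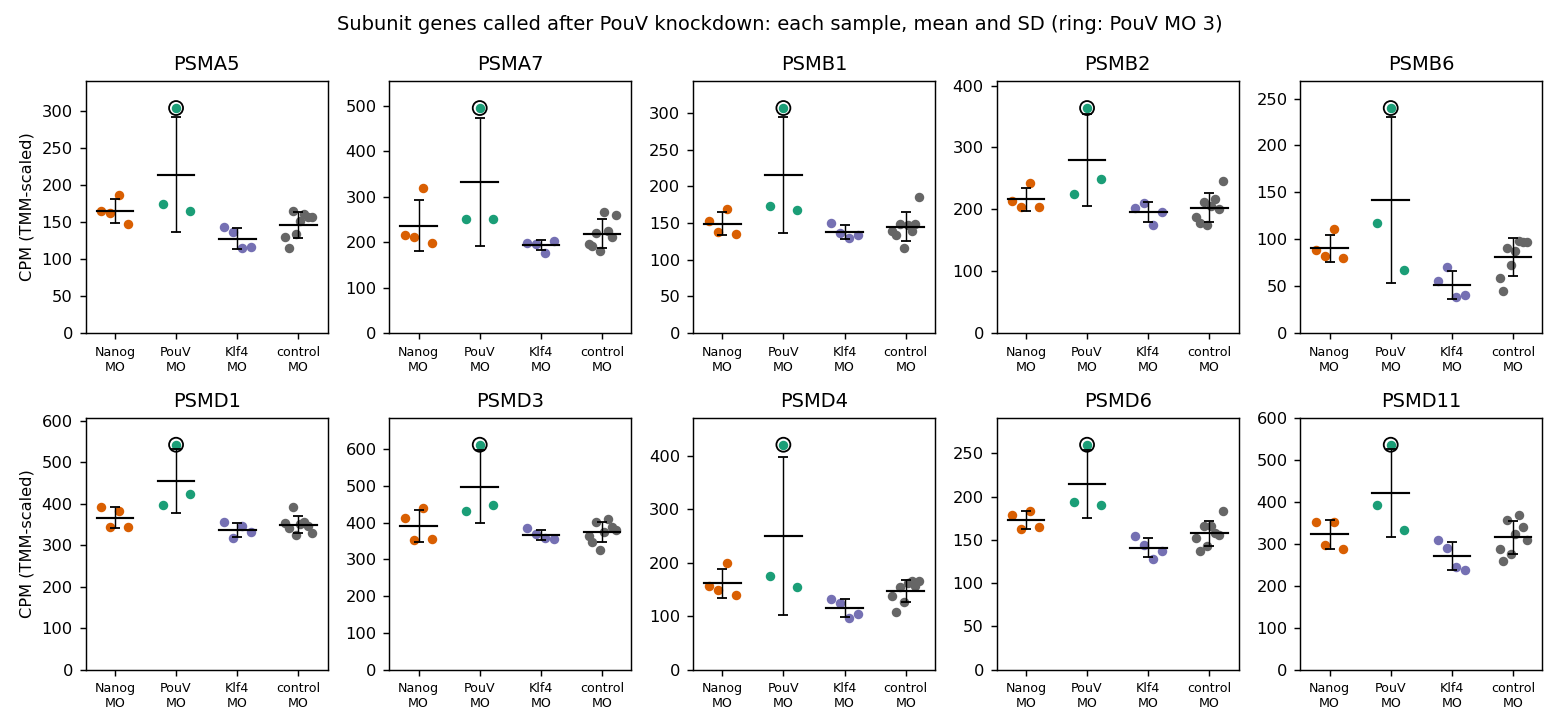
CPM of the 10 subunit genes called after PouV knockdown, with 1 point per sample, the mean as a bar and the SD as whiskers, for Nanog MO (n = 4), PouV MO (n = 3), Klf4 MO (n = 4) and control MO (n = 8). The ringed point is PouV MO 3, which is the highest sample for all 10 genes, while PouV MO 4 falls below the control median for PSMB6 and PSMD4.

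The PSMD symbols cover proteins of different kinds, and these were split by role after the values had been seen. PSMD1 and PSMD2 are the large scaffold subunits of the base, and PSMD4 is a ubiquitin receptor. PSMD1 had 396, 542 and 424 CPM in PouV MO 1, 3 and 4, and from 325 over a median of 349 to 393 CPM in control samples. All of its PouV MO samples thus exceeded all controls, and it rose by a log2 fold change of 0.39 ± 0.08 (SE, adjusted p = 0.0281, edgeR). PSMD4 had 176, 421 and 155 CPM in PouV MO 1, 3 and 4, and from 108 over a median of 156 to 166 CPM in control samples, with a log2 fold change of 0.78 ± 0.16 (SE, adjusted p = 0.0251, edgeR). In PouV MO 3 the level of PSMD4 was 2.54 times the highest control, whereas PouV MO 4 was just below the control median. PSMD2, the other scaffold, had 343, 393 and 350 CPM in PouV MO 1, 3 and 4, and from 343 over a median of 402 to 488 CPM in control samples. All its PouV MO samples lay below the control median, and it was not called (log2 fold change -0.14 ± 0.08, SE, adjusted p = 0.423, edgeR).

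The lid is the part of the regulatory particle that holds the main deubiquitinase. All 7 lid genes (PSMD3, PSMD6, PSMD7, PSMD11, PSMD12, PSMD13 and PSMD14) had log2 fold changes between 0.29 and 0.47, and 3 were called. PSMD6, a lid scaffold subunit, had 193, 260 and 190 CPM in PouV MO 1, 3 and 4, and from 137 over a median of 157 to 184 CPM in control samples. No PouV MO sample overlapped the controls, and PSMD6 had the smallest adjusted p of all members (log2 fold change 0.47 ± 0.08, SE, adjusted p = 0.00485, edgeR). PSMD3, a further lid scaffold subunit, had 433, 612 and 447 CPM in PouV MO 1, 3 and 4, and from 327 over a median of 377 to 410 CPM in control samples. It likewise did not overlap (log2 fold change 0.43 ± 0.08, SE, adjusted p = 0.0189, edgeR). PSMD11, also of the lid, had 392, 537 and 333 CPM in PouV MO 1, 3 and 4, and from 259 over a median of 316 to 370 CPM in control samples (log2 fold change 0.45 ± 0.09, SE, adjusted p = 0.0281, edgeR). Here PouV MO 4 lay within the control range. PSMD13 was not called (log2 fold change 0.34 ± 0.09, SE, adjusted p = 0.0999, edgeR) but had all PouV MO samples, at 293, 361 and 303 CPM in PouV MO 1, 3 and 4, above the highest control at 274 CPM. PSMD14, the lid deubiquitinase, was not called, with a log2 fold change of 0.34 ± 0.11 (SE).

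PSMD5, PSMD9 and PSMD10 are chaperones that help to assemble the base and are absent from the finished complex, and they were among the least changed members. PSMD5 had 21.6, 12.5 and 19.9 CPM in PouV MO 1, 3 and 4, and from 17.5 over a median of 19.8 to 23.5 CPM in control samples. It was the only member below all controls in PouV MO 3, and PouV MO 1 and 4 lay within the control range. Its log2 fold change was -0.17 ± 0.14 (SE, adjusted p = 0.565, edgeR), and it was 0.03 without PouV MO 3. PSMD9 had 104, 122 and 92.3 CPM in PouV MO 1, 3 and 4, and from 80.2 over a median of 104 to 109 CPM in control samples (log2 fold change 0.09 ± 0.10, SE). PSMD10 had 37.6, 49.8 and 39.9 CPM in PouV MO 1, 3 and 4, and from 37.7 over a median of 39.7 to 42.8 CPM in control samples (log2 fold change 0.10 ± 0.11, SE). For both, PouV MO 3 was the only PouV MO sample above the controls, at 1.22 and 1.24 times the control mean.

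**Figure D3:**
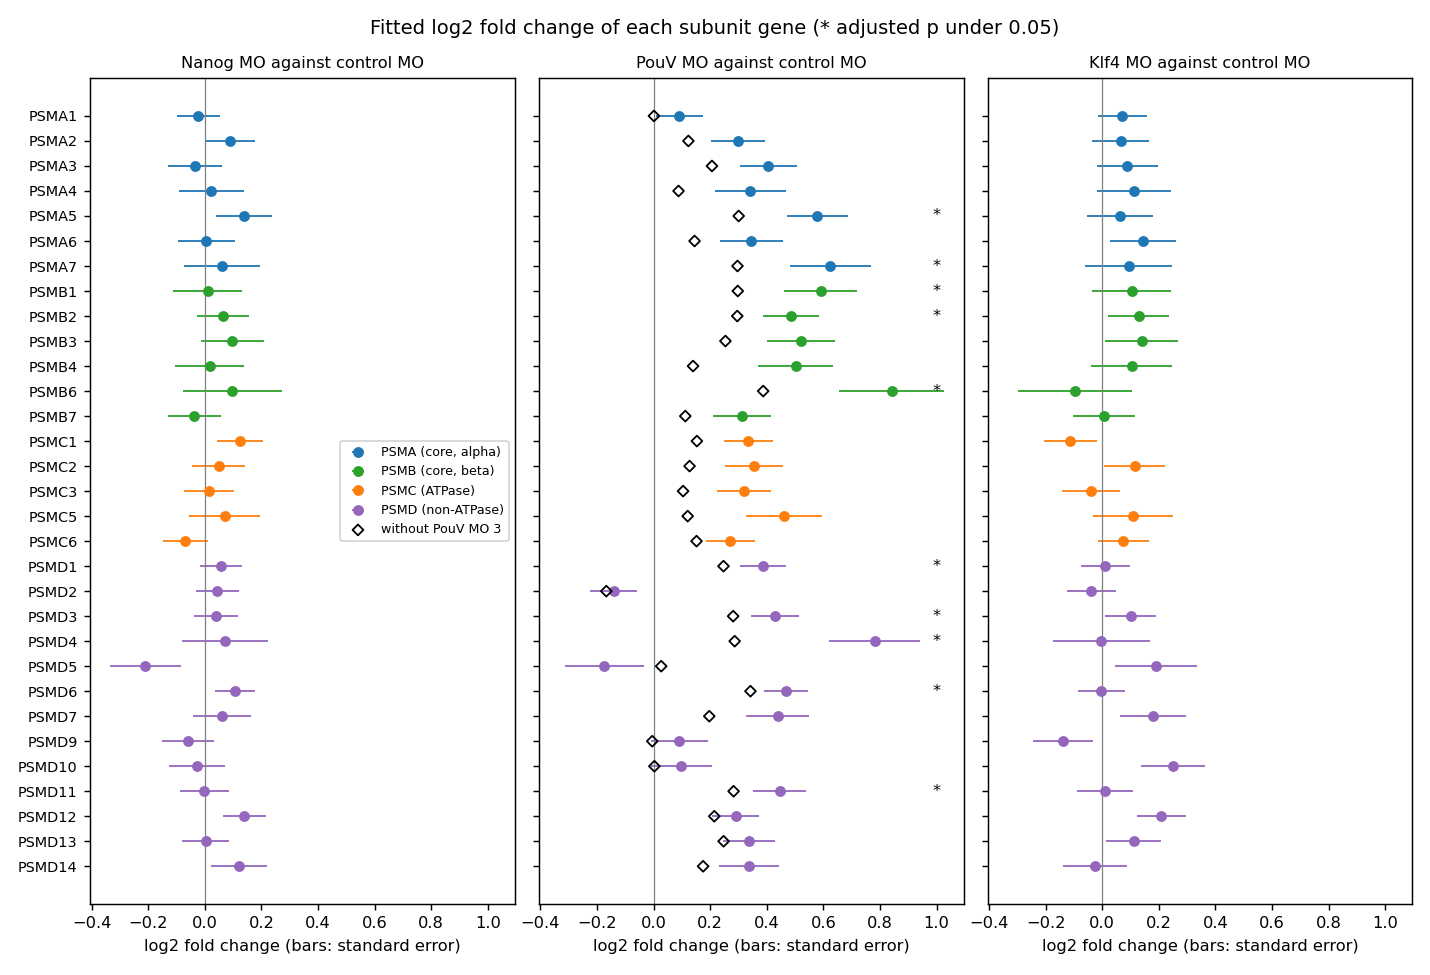
Fitted log2 fold change of each of the 31 subunit genes, with its standard error, in Nanog MO, PouV MO and Klf4 MO against control MO samples, with a star at an adjusted p under 0.05. Open diamonds give the PouV MO values without PouV MO 3, which lie to the left of the filled points for 30 of 31 genes, PSMD5 being the exception.

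In 5 of 31 subunit genes, PSMB3, PSMD1, PSMD3, PSMD6 and PSMD13, every PouV MO sample exceeded every control, as did 1.06% of all genes tested. Leaving out a PouV MO sample cannot remove a gene from this count. Without PouV MO 3 the count stayed at 5, while the share of all genes was 2.25%. No such gene was found after Nanog (0 of 31, against 0.479% of all genes) or Klf4 knockdown (0 of 31, against 1.33%). PouV MO 1 and 4 were both above the control mean for 22 of 31 subunit genes, namely 11 of 13 core, 2 of 5 ATPase and 9 of 13 PSMD genes, and for 26.9% of the 13781 genes.

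Without PouV MO 3 the median log2 fold change of the 31 genes was 0.18 and 29 of 31 stayed above 0. The medians were 0.21 for core, 0.13 for ATPase and 0.21 for PSMD genes. At an unadjusted p under 0.05, 16 of 31 were higher (3.43% of all genes), among them all 10 called genes of the full set. PSMD6 came closest to the threshold (log2 fold change 0.34 ± 0.07, SE, adjusted p = 0.0758, edgeR). By role, the PSMD medians were 0.25 for the base proteins, 0.25 for the lid and 0.0028 for the assembly chaperones. The lowest values were -0.17 for PSMD2 and -0.0048 for PSMD9.

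The count of 10 also depended on the RUVs factor, the choice of controls and the replicate block. It was 0 without the RUVs factor (0.226% of all genes called higher), 0 against the 2 controls of the PouV experiment alone (0%), and 0 with the replicate block (0.0737%), while the median log2 fold change was 0.34, 0.29 and 0.40, and 26, 8 and 26 of 31 genes were higher at an unadjusted p under 0.05. With PouV MO 3 left out and only the controls of the PouV experiment used, the median was 0.02, 1 of 31 was higher at an unadjusted p under 0.05 and PSMB6 was at -0.08. The share of all genes at an unadjusted p under 0.05 was not worked out for these fits, so the counts at that threshold stand without a background. PouV MO 4 has no control of its number, so the PouV values with the replicate block rest on PouV MO 1 and 3 and their controls. Leaving out Nanog control 2, 3 or 4 gave 3, 4 and 4 called genes (0.364%, 0.311% and 0.279% of all genes), leaving out Klf4 control 1 gave 6 (0.337%), and leaving out PouV MO 1 or PouV MO 4 gave 16 and 17 (0.733% and 1.98%).

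Knockdown and control MO were given to opposite sides of an embryo, and MO and control samples of the same number were taken as such sides, which gave 8 pairs. The labels give the shared number only. Over the 13781 genes the deviations of both samples from their group means correlated at 0.51 to 0.67 in 7 pairs and at -0.0034 in Nanog pair 4. In pair 1 of the PouV experiment, 27 of 31 subunit genes were higher on the PouV MO side, with a median difference of 0.14 on the log2 scale, and 50.3% of the 13781 genes were. In pair 3 it was 30 of 31 with a median of 0.55, and 46.4% of those genes. The lowest gene of pair 3 was PSMD5 at -0.48 and the highest PSMD4 at 1.35. The lowest of pair 1 was PSMD2 at -0.32 and the highest PSMD6 at 0.31. In both pairs 26 of 31 subunit genes were higher on the PouV MO side, as were 25.6% of those genes. PouV MO 4 had no partner here. The test of the pairs is the fit with the replicate block, whose PouV values rest on pairs 1 and 3 only.

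**Figure D4:**
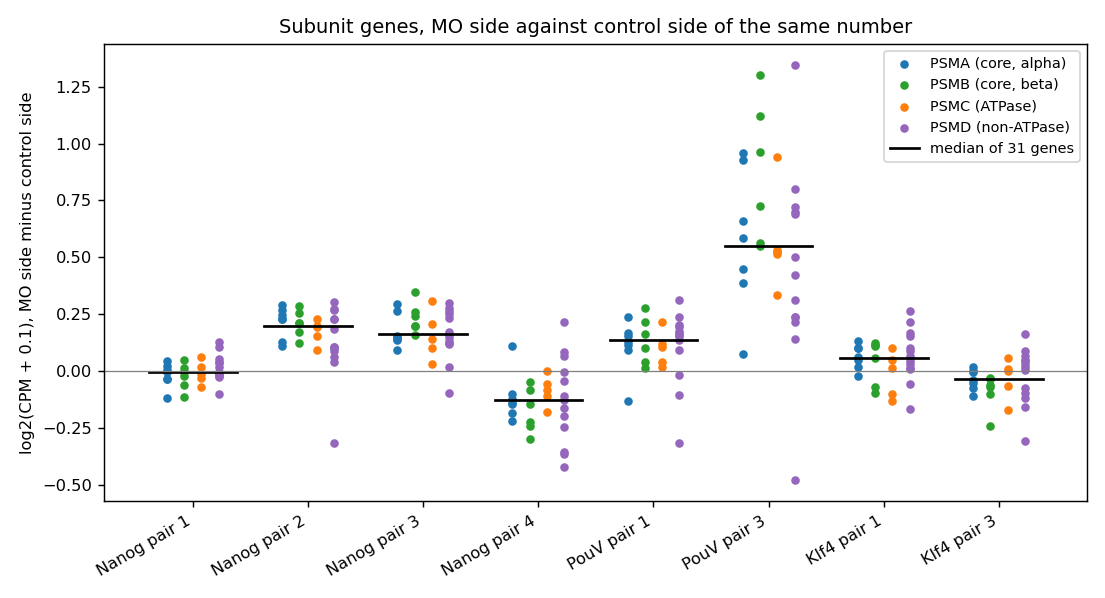
Difference in log2(CPM + 0.1) between the MO sample and the control sample of the same number for each of the 31 subunit genes in the 8 pairs, coloured by family, with the median as a bar. PouV pair 3 has the highest median at 0.55, and the Nanog pairs lie on both sides of 0.

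Pairs of the other experiments differed among themselves. In the Nanog experiment 13, 30, 30 and 4 of 31 genes were higher on the Nanog MO side in pairs 1, 2, 3 and 4, with medians of -0.01, 0.20, 0.16 and -0.13, as were 46.6%, 52.4%, 48.8% and 47.6% of the 13781 genes. In Nanog control 2, the control sample of pair 2, 18 of 31 subunit genes were below all other controls, as were 15.04% of those genes. In Nanog MO 3, the MO sample of pair 3, 19 of 31 were above all controls, as were 13.7% of those genes. Only PSMA2, PSMD6, PSMD12 and PSMD14 were higher on the Nanog MO side in all 4 pairs, against 12.1% of those genes. In the Klf4 experiment 24 and 13 of 31 genes were higher on the Klf4 MO side in pairs 1 and 3, with medians of 0.06 and -0.03, as were 46.2% and 50.5% of those genes. Higher on the Klf4 MO side in both pairs were 13 of 31 subunit genes, as were 27.3% of those genes.

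In the fit over all samples, no subunit gene passed after Nanog or Klf4 knockdown. The values after Nanog knockdown lay between -0.21 ± 0.13 for PSMD5 and 0.14 ± 0.08 for PSMD12, a lid scaffold subunit (SE, adjusted p = 0.941 and 0.919, edgeR). After Klf4 knockdown they lay between -0.14 ± 0.11 for PSMD9 and 0.25 ± 0.11 for PSMD10 (SE, adjusted p = 0.950 and 0.780, edgeR). The genes with an unadjusted p under 0.05 after Klf4 knockdown were PSMD10 and PSMD12, and PSMD12 had 0.21 ± 0.09 (SE, adjusted p = 0.748, edgeR). PSMD10 had 45.2, 49.7, 39.1 and 41.1 CPM in Klf4 MO 1 to 4, and 37.7 to 42.8 CPM in control samples. PSMD10 thus exceeded all controls in Klf4 MO 1 and 2 only, and its log2 fold change was -0.06 with the replicate block.

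The knockdown groups were also set against each other in the same fit. These groups come from different experiments, so knockdown and experiment cannot be told apart in these differences. Between PouV MO and Nanog MO, 0 of 31 subunit genes were called, against 0.1% of all genes called higher, and 23 were higher at an unadjusted p under 0.05 (7.49% of all genes). Between PouV MO and Klf4 MO, 0 of 31 were called, against 0.079%, and 18 were higher at an unadjusted p under 0.05 (5.61%). The median differences were 0.34 and 0.33 on the log2 scale, and 0.15 and 0.15 without PouV MO 3. The largest was that of PSMB6 against Klf4 MO, at 0.94 ± 0.24 (SE, adjusted p = 0.148, edgeR). The controls of these experiments also differed in PSMB6, with means of 97.2 CPM in PouV control and 52.2 CPM in Klf4 control samples (n = 2 each). With the DESeq2 Wald test 6 of 31 were called between PouV MO and Nanog MO, against 0.874% of all genes called higher, and 4 of 31 between PouV MO and Klf4 MO, against 0.69%.

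For some subunit genes the mean of the Klf4 controls lay further from the means of the other controls than from that of the Klf4 MO samples. PSMB6 had 38.3 to 70.2 CPM in Klf4 MO samples and 45.3 and 59.0 CPM in their controls, against 72.5 to 98.3 CPM in the controls of the other experiments. PSMD4 had 96.9 to 133 CPM in Klf4 MO samples and 108 and 139 CPM in their controls. These controls overlapped those of the Nanog experiment, at 127 to 166 CPM. In the PouV experiment the PSMD4 means were 251 CPM in PouV MO and 161 CPM in PouV control samples. Without PouV MO 3 the PouV MO mean was 166 CPM, so the gap rested on that sample. For PSMC1 all 6 samples of the Klf4 experiment lay below all samples of the others. The margin was very small, with Klf4 control 1 at 187.05 CPM and Nanog control 2 at 187.063 CPM. PSMD5 was higher in the Klf4 controls than in the other controls. The share of all genes with such differences between experiments was not worked out, so these cases stand without a background. Within 3 of the 4 groups PSMB6 was the most variable member, with a coefficient of variation of 62.6% in PouV MO, 29.2% in Klf4 MO and 24.6% in control samples, where the median member had 26.3%, 5.98% and 9.93%. In Nanog MO it was PSMA7, at 23.8%, where PSMB6 had 15.9%. The sample titles name no batch. The experiment was read from the targeted gene in the title, and the Klf4 controls and Klf4 MO samples share it.

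Genes that work with the proteasome were examined as 6 lists. For scale, 0.479% of all genes were called higher after PouV knockdown, and 1.06% had every PouV MO sample above every control. In the list of 7 further regulatory particle genes, 2 rose after PouV knockdown: ADRM1, a ubiquitin receptor, had 168, 239 and 173 CPM in PouV MO 1, 3 and 4, and 117 to 152 CPM in control samples (log2 fold change 0.52 ± 0.10, SE, adjusted p = 0.0111, edgeR). USP14, a deubiquitinase that binds the base, had 192, 267 and 185 CPM in PouV MO 1, 3 and 4, and 129 to 184 CPM in control samples (log2 fold change 0.40 ± 0.08, SE, adjusted p = 0.0169, edgeR). Both genes had all PouV MO samples above all controls, by a small margin for USP14 in PouV MO 4. The list ran from -0.46 for ECPAS, a proteasome adaptor, to 0.62 for TXNL1, a thioredoxin-like protein of the regulatory particle, neither of which was called.

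SQSTM1, a receptor that carries ubiquitin-tagged cargo to autophagy, was 1 of 6 ubiquitin shuttle genes called. It had 60, 93.7 and 67.4 CPM in PouV MO 1, 3 and 4, and from 31.7 over a median of 36.8 to 56.4 CPM in control samples (log2 fold change 0.92 ± 0.14, SE, adjusted p = 0.0044, edgeR). All PouV MO samples exceeded all controls, of which the highest was Klf4 control 3. Klf4 MO 3, at 64.8 CPM, was above PouV MO 1. The lowest value of that list was -0.17 for UBQLN4. Of 5 regulators of proteasome gene expression, 1 was called, NPLOC4, a cofactor of the VCP unfoldase. NPLOC4 had 137, 231 and 146 CPM in PouV MO 1, 3 and 4, and 101 to 132 CPM in control samples (log2 fold change 0.57 ± 0.10, SE, adjusted p = 0.00956, edgeR). NFE2L1 and NFE2L2, transcription factors of proteasome genes, had 0.01 and 0.11, and NGLY1, which processes NFE2L1, had the lowest value of the list at -0.04. These 4 called genes had log2 fold changes without PouV MO 3 of 0.37 for ADRM1, 0.25 for USP14, 0.66 for SQSTM1 and 0.33 for NPLOC4, with adjusted p of 0.150 to 0.273 (edgeR). Against only the controls of the PouV experiment and without the RUVs factor, 0 of 18996 genes were called higher, so these 4 were not called there either.

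The remaining lists held 0 called genes. The 9 assembly chaperones, PSMD5, PSMD9 and PSMD10 included, had a median of 0.10 after PouV knockdown, with POMP, which matures the core, highest at 0.48 and PSMD5 lowest. Of those outside the member list PAAF1 was lowest at -0.14. The 3 activator and inhibitor genes had a median of -0.04, from -0.15 for the activator PSME4 to 0.05 for the inhibitor PSMF1. The 3 ubiquitin and E1 genes were at 0.06 for the E1 enzyme UBA6, 0.38 for the ubiquitin gene UBB and 0.42 for RPS27A, which encodes ubiquitin fused to a ribosomal protein.

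**Figure D5:**
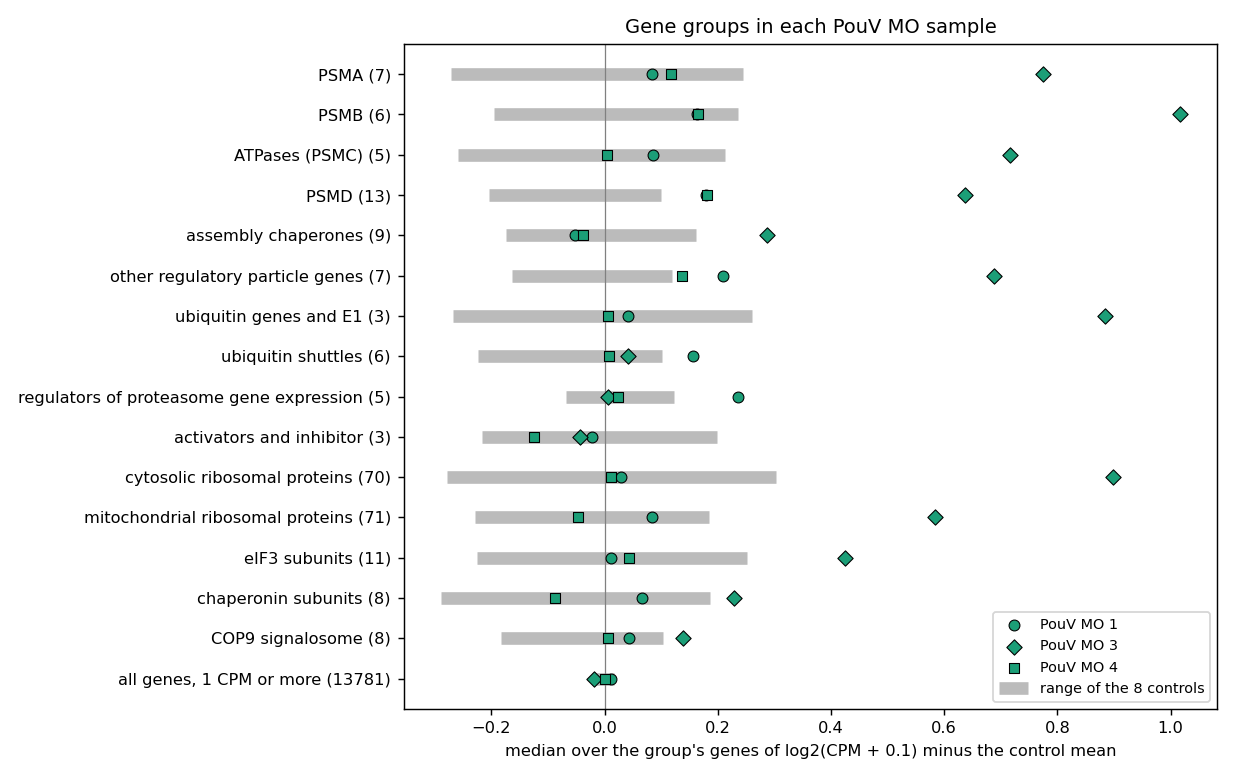
Median over the genes of each group of log2(CPM + 0.1) relative to the control mean, in PouV MO 1, 3 and 4, with the range of the 8 control samples as a grey bar and the number of genes in brackets. PouV MO 3 lies within the control range for ubiquitin shuttles, regulators of proteasome gene expression, activators and inhibitor, and all genes together, and above it for the other groups, whereas PouV MO 4 exceeds it only for PSMD and the other regulatory particle genes, and PouV MO 1 for these, the shuttles and the regulators.

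Other large complexes were set beside the subunit genes for scale. In PouV MO 3 the median was 0.72 for the 31 subunit genes, 0.90 for 70 cytosolic ribosomal protein genes, 0.58 for 71 mitochondrial ribosomal protein genes and 0.43 for 11 eIF3 translation initiation genes, relative to the control mean. It was 0.23 for 8 chaperonin subunits and 0.14 for 8 COP9 signalosome genes, and the COP9 signalosome resembles the proteasome lid in its build. In PouV MO 1 and 4 the cytosolic ribosomal protein genes were at 0.03 and 0.01, the mitochondrial ones at 0.08 and -0.05, and the subunit genes at 0.15 and 0.11. Fitted without PouV MO 3, the median log2 fold change was 0.06 for cytosolic and 0.07 for mitochondrial ribosomal protein genes, 0.06 for the chaperonin, 0.07 for the COP9 signalosome and 0.06 for eIF3, and 0.18 for the subunit genes. At an unadjusted p under 0.05 without PouV MO 3, 0 of 70 and 0 of 71 ribosomal protein genes were higher, against 16 of 31 subunit genes and 3.43% of all genes. These values are against all controls. With only the controls of the PouV experiment and without PouV MO 3 the subunit median was 0.02, and the other complexes are not given for that fit. The counts are a description, and no difference between the complexes was tested.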

How the data were processed

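The authors aligned the reads with STAR 2.7.2a to GRCg6a, as their processing notes give it, and deposited their counts as raw (24356 genes) and filtered (18996 genes) tables, beside TMM-scaled CPM values that are here treated as a signal and served only for gene names. A RefSeq gene table (GRCg7b) named 1205 further genes by ID, 12495 had the authors' name and 5296 had none.

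A gene entered if any sample held over 5 of its reads. All 19 samples were fitted in 1 model with 4 groups and 1 RUVs factor. The study's methods use RUVs on the control samples, and the number of factors was chosen here. RUVs, written out from its published algorithm, takes the controls as replicate set and the 1000 genes of lowest coefficient of variation as control genes. The fit used TMM normalization and the quasi-likelihood test in edgeR 4.0.16 (R 4.3.3), with Benjamini-Hochberg adjustment at 0.05. The study used DESeq2, which is an alternative here (version 1.42.0). The procedure was tested on simulated counts. The F statistic gave the standard errors. Samples are pools, and p-values measure the spread between these pools that is left after the RUVs factor, where one was used. Except in the fits with the replicate block, MO and control samples of the same number were treated as independent. Expressed genes are those with a mean of at least 1 CPM, and 0.1 CPM was added before logs.

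Same-numbered MO and control samples of an experiment were taken as sides of the same embryos because of the bilateral design, although the labels give only the number. Their deviations from the group means correlated at -0.0034 to 0.671 (median 0.559, 7 of 8 pairs over 0.1), which does not check the pairing.

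The members and lists, and the alternatives in part, were chosen with earlier results of these data known. By rule, values per sample are given for members called in any knockdown, the 3 lowest after PouV knockdown, catalytic subunits, and the members of highest and lowest mean CPM (PSMD3 and PSMD5). Other pathway genes are named where called or at the ends of their list, and 1 gene of these lists is not reported here. PSMA1, PSMB3, PSMC5, PSMD10, PSMD13 and the split of PSMD genes by role were added after their values were seen. The roles of genes were not derived from these data. Alternatives were the number of RUVs factors, its replicate sets, RLE and upper-quartile normalization, DESeq2, 2 other gene filters, only the controls of an experiment, the replicate block, and each sample left out. Promoters and protein sequences were not used here, and the counts cannot separate near-identical gene copies.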

Additional observations from a re-analysis of the deposited data

Results flagged for a closer look

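Of 93 groups of 4 to 8 samples examined for a single sample far from the rest, 4 stood out, and chance flags about 1 in 20 groups. In Nanog MO 3, PSMA2 was at 177 CPM (147 to 150 CPM in the other Nanog MO samples), PSMA4 was at 261 CPM (195 to 198 CPM) and PSMA7 was at 320 CPM (198 to 216 CPM). All of these encode alpha ring subunits, and the median of the 31 subunit genes in that sample was 0.25 on the log2 scale relative to the controls. In Nanog control 1, PSMD1, a base scaffold, was at 393 CPM (325 to 355 CPM in the other controls). The PouV MO group has 3 samples and was not examined in this way.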

How the results depend on the processing

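The alternatives that leave out PouV MO 3 together with the RUVs factor, or together with the controls of other experiments, were added after seeing the data. The replicate block changed no call after Nanog or Klf4 knockdown. After Nanog knockdown 0 subunit genes were called in any of the alternatives run. After Klf4 knockdown the count was 0 except without PouV MO 3 and the RUVs factor, where it was 1. After PouV knockdown the count, 10 as reported, was 0 without the RUVs factor, 0 against the controls of the PouV experiment, 0 in both fits with the replicate block, with or without the RUVs factor, 0 in both added fits and 17 with DESeq2. Leaving out 1 sample at a time it ran from 0 (without PouV MO 3) to 17 (without PouV MO 4). It was 9 to 11 under the other scalings, filters and RUVs settings. Between PouV MO and Nanog MO the count was 6 with DESeq2 and 0 to 4 with 1 sample left out. Between PouV MO and Klf4 MO it was 4 without the RUVs factor, 1 with 2 RUVs factors, 3 with the 4 groups as RUVs replicate sets, 4 with DESeq2, 1 with any gene that had a read, and 0 to 4 with 1 sample left out. Where the text gives no share of all genes called in the same fit, these counts stand without a background. The median after PouV knockdown ran from 0.175 to 0.486 with 1 sample left out and was 0.113 and 0.0209 in the added fits. The median after Nanog knockdown ran from -0.00343 to 0.0757 with 1 sample left out, and was 0.159 with the replicate block. The median after Klf4 knockdown, 0.09 as reported, was -0.0512 without the RUVs factor, 0.00348 against the controls of the Klf4 experiment, -0.0644 with the replicate block, 0.0157 with that block but without the RUVs factor, and -0.0458 and 0.00885 in the added fits, and it ran from 0.0353 to 0.0943 with 1 sample left out. Log2 fold changes of single genes after PouV knockdown turned direction as follows. With 1 sample left out at a time, the range was PSMD5 from -0.336 to 0.0269, PSMD9 from -0.00477 to 0.169, PSME4 from -0.294 to 0.0763, PSMF1 from -0.114 to 0.155, and the turn came without PouV MO 3. Without PouV MO 3 and the RUVs factor, PSMA1 was -0.0400, PSMD5 0.0553, PSMD9 -0.0258, PSMD10 -0.0487, PSME4 0.0700, PSMF1 -0.156 and UBA6 -0.0223. Without PouV MO 3 and against the controls of the PouV experiment, PSMA1 was -0.159, PSMA2 -0.0374, PSMA6 -0.0441, PSMB6 -0.0758, PSMB7 -0.0283, PSMC1 -0.0093, PSMC2 -0.00817, PSMC3 -0.0882, PSMC5 -0.0379, PSMC6 -0.0116, PSMD5 0.153, PSMD9 -0.103, PSMD10 -0.0981, PSMD14 -0.0256, ECPAS 0.0103, NGLY1 0.00731, POMP -0.114, PSME4 0.114, PSMF1 -0.241, RPS27A -0.113 and UBA6 -0.0776. With all samples against the controls of the PouV experiment, PSMA1 was -0.0365, NGLY1 0.000708, PSMF1 -0.0439 and UBA6 -0.0326. With the replicate block but without the RUVs factor, PSMA1 was -0.0279 and UBA6 -0.00453. With the 4 groups as RUVs replicate sets, PSMF1 was -0.034 and UBA6 -0.0186. After Klf4 knockdown PSMD10 was -0.0644 with the replicate block. The cause was not tested. Depth left at least 431 reads for every member in every sample (PSMD5 being the lowest).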
